A study of Mus musculus with 24 samples.

Results

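Loss of Jnk1 in hepatocytes was compared with its presence in livers that had been cholestatic for 28 d. The comparison took 6 of the 24 arrays of the study by their sample titles, 3 from ligated JNK1Δhepa mice and 3 from ligated control mice, and all 18820 genes measured were examined. All animals were male, on a C57/BL6 background, and 7 to 8 weeks old at surgery. They were 12 weeks old when the 28 d livers were taken and 8 weeks old when the 48 h livers were taken. The control genotype was JNK1f/f, in which the Jnk1 alleles are flanked by recombination sites but expressed. JNK1Δhepa mice carried the same alleles and a Cre transgene under an albumin promoter that becomes active after birth, so that Jnk1 was meant to be lost in hepatocytes and kept in the other cells of the liver. The same genotypes were also studied 48 h after ligation, JNK1-/- mice were ligated at both times, and sham operation was done in the control genotype only. No sham-operated JNK1Δhepa liver was measured, so a difference between genotypes after ligation cannot be told apart from one that was there before it. Arrays carry a replicate number and no other mark of the animal. P-values measure the spread between arrays of a group, taken over all 8 groups and not over these 6 arrays alone, unless a fit to only the compared arrays is named.

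Jnk1, with the gene symbol Mapk8, encodes a stress-activated kinase. It is switched on by a chain of upstream kinases and phosphorylates Jun and other members of the AP-1 family of transcription factors. Bile duct ligation dams bile back into the liver, where retained bile acids injure hepatocytes, bile ducts multiply, macrophages gather and stellate cells turn into matrix-producing myofibroblasts. The comparison asks which parts of that response differ when hepatocytes lack the kinase.

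Mapk8 was read on each array before any other gene. Values here and below are log2 intensities, given in the order of replicates 1, 2 and 3. Mapk8 read 7.67, 7.41 and 7.44 in ligated control liver and 7.67, 6.90 and 6.97 in ligated JNK1Δhepa liver. Replicates 2 and 3 of JNK1Δhepa lay below every control array, whereas the array labelled JNK1Δhepa replicate 1 read the same as the highest control array and goes against its label. The difference was -0.33 (log2, SE 0.22, n = 3 per group) and did not pass the threshold (limma adjusted p = 0.5132). Without that array it was -0.57 (SE 0.21, limma adjusted p = 0.2977). At 48 h the 3 JNK1Δhepa livers read 6.76 to 6.81 and the 3 ligated control livers 7.37 to 7.49. Sham-operated control livers, in which Jnk1 is intact, read 6.93, 6.67 and 6.86 at 48 h, overlapping JNK1Δhepa. Sham livers at 28 d read 7.52, 7.52 and 7.54. A low reading is thus not by itself a mark of the deletion. Mapk8 in JNK1-/- liver at 28 d averaged 5.63 ± 0.46 (SD, n = 3), and JNK1Δhepa liver stood above it by 1.54 (limma adjusted p = 0.001141). Whether the probes for Mapk8 lie inside the deleted stretch is not given in the sources used here. Mapk9, which encodes the related kinase JNK2, read 9.03, 8.89 and 8.90 in control and 9.17, 9.24 and 9.07 in JNK1Δhepa liver. The groups did not overlap, but the difference of 0.22 (SE 0.08) was not called (limma adjusted p = 0.1973). Mapk10, the third member of the family, was dim in both groups, between 2.96 and 3.26.

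**Figure D1:**
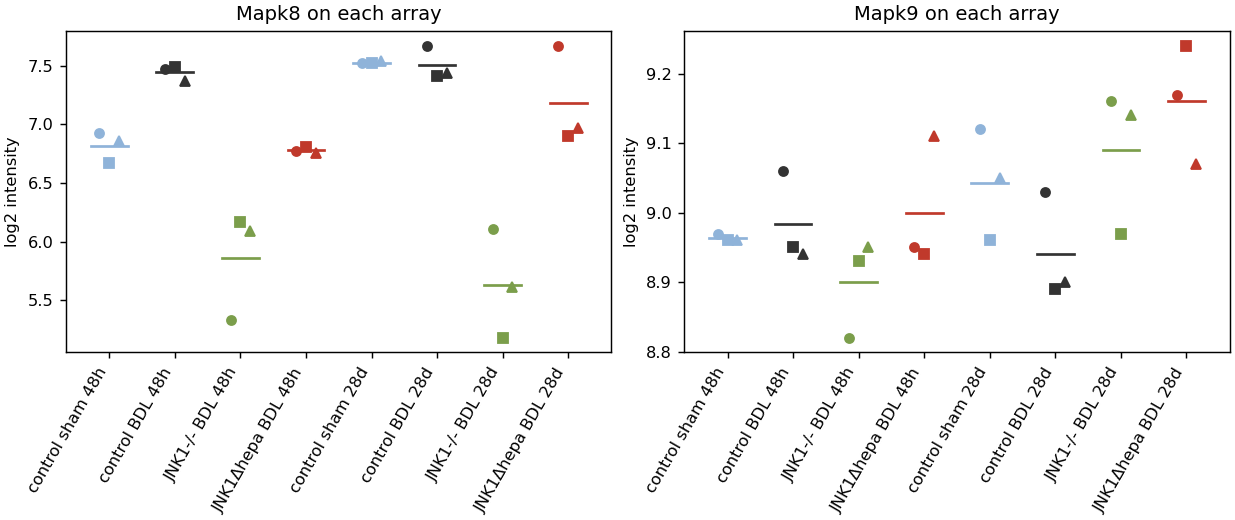
Log2 intensity of Mapk8 (left) and Mapk9 (right) on each of the 24 arrays, by genotype, surgery and time. Circles, squares and triangles are replicates 1, 2 and 3, and the line is the mean of a group. For Mapk8 the array labelled JNK1Δhepa BDL 28d replicate 1 lies at 7.67, level with the ligated control arrays, while replicates 2 and 3 lie at 6.90 and 6.97.

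The tissue matched its label. The hepatocyte products Alb and Apoa1 read 13.13 to 13.33 on all 6 arrays, and the summed level of 31 hepatocyte genes, as a mean log2 intensity, was 11.48 in control and 11.54 in JNK1Δhepa liver. The ligated control livers differed more among themselves than any other group. Their median SD per gene was 0.187, against 0.115 to 0.139 in the other 7 groups, and 360 genes had an SD over 1, against 25 in ligated JNK1Δhepa liver. Control replicate 3 stood apart in genes of bile duct and scar. Its mean over 19 cholangiocyte markers was 8.13, against 5.70 and 6.05 on the other control arrays and 5.68 to 5.96 in JNK1Δhepa liver. Control replicate 1 stood apart in the interferon list, at 5.84 against 6.89 and 6.90. List medians below are given also without an array where leaving it out moves them by over 1.5 times.

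Between ligated JNK1Δhepa and control liver limma called 43 of 18820 genes (0.228%) at an adjusted p under 0.05, 23 higher (0.122%) and 20 lower (0.106%) in JNK1Δhepa. The groups of 3 did not overlap for any of the 43, which were picked by p from these arrays. Over all genes 7.22% were higher and 6.14% lower without overlap. The changes were small: 8 genes passed 2-fold, 3 of them higher and 5 lower. All 43 shared an adjusted p of 0.04962, just under the threshold, while 2798 genes (14.9%) had an unadjusted p under 0.05. With the replicate number as a block, 301 genes were called, 152 higher and 149 lower, and they included all 43. With arrays centred on their medians, 225 genes were called higher and 30 lower, and the median difference over all genes was 0.15 in place of 0.01.

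The number of calls hung on single arrays. No gene was called without control replicate 3, without the array labelled JNK1Δhepa replicate 1 or without JNK1Δhepa replicate 2. In these fits limma gave 1625, 2260 and 2207 genes at an unadjusted p under 0.05. Without JNK1Δhepa replicate 3, 6 genes were called, 1 of them among the 43. Without control replicate 1 the count was 1985, among them all 43, and without control replicate 2 it was 129, 28 of them among the 43. In a fit to only these 6 arrays 3 genes were called, and 0 of the 43 were among them. Since the groups did not overlap for any of the 43, leaving out 1 array could not change the direction of a difference. The calls below are those of the fit to all arrays, and their values carry this limit.

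**Figure D2:**
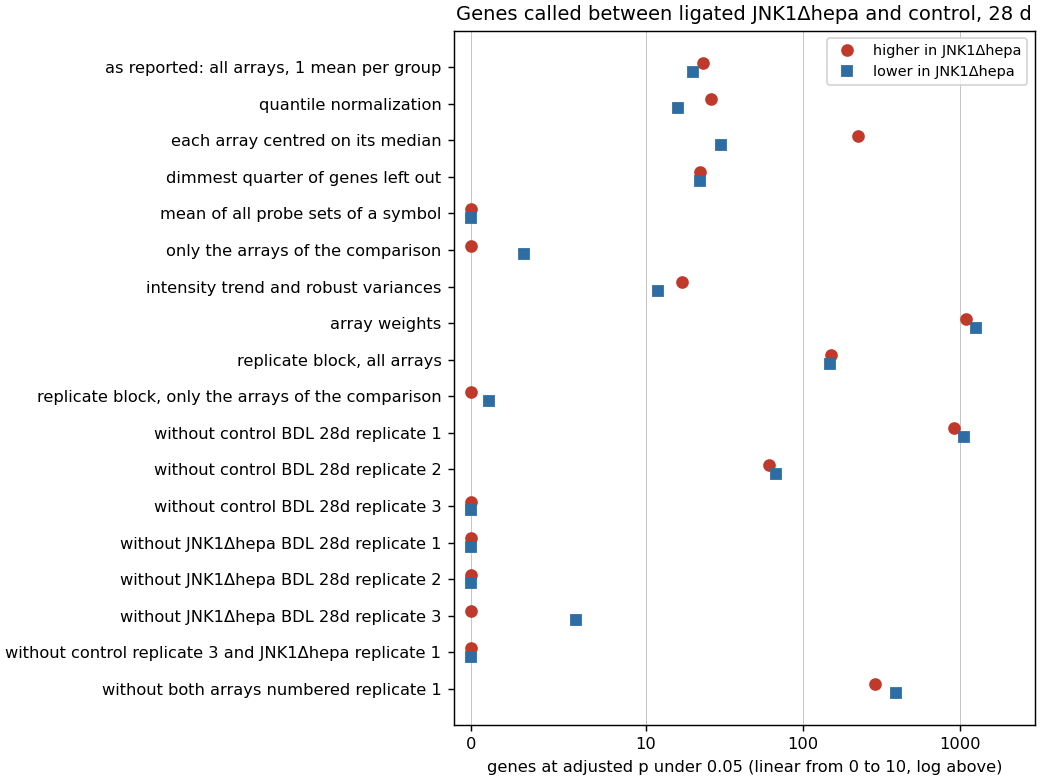
Number of genes called (limma adjusted p under 0.05) between ligated JNK1Δhepa and control liver at 28 d under each setting, on an axis that is linear from 0 to 10 and logarithmic above. Circles are genes higher and squares genes lower in JNK1Δhepa, and the counts run from 0, without control replicate 3 for example, to 1092 higher and 1265 lower with array weights.

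Of the called genes, Miox, myo-inositol oxygenase, had the largest increase in JNK1Δhepa liver. It read 5.82, 5.68 and 4.60 in control and 7.27, 7.08 and 6.88 in JNK1Δhepa liver. Every JNK1Δhepa array was above every control array, a 3.27-fold rise (log2 difference 1.71, SE 0.35, limma adjusted p = 0.04962). Sham liver was lower than both, with a mean of 4.35 ± 0.24 (SD, n = 3). Without control replicate 3, the lowest array, the difference was 1.33. Ces1b, a carboxylesterase that hydrolyses esters of lipids and drugs, read 9.64, 9.63 and 9.26 in control and 10.83, 10.60 and 10.39 in JNK1Δhepa liver. It rose 2.13-fold (log2 difference 1.09, SE 0.22), and the JNK1Δhepa mean of 10.60 was near the sham mean of 10.39. Sec22c, a protein of transport between endoplasmic reticulum and Golgi, rose 2.04-fold, from 6.31, 6.28 and 5.75 to 7.21, 7.22 and 6.99.

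The other named genes that rose did so by less than 2-fold. Mgll, which cleaves monoacylglycerol to glycerol and fatty acid, read 8.26, 8.24 and 7.73 in control and 8.67, 9.18 and 9.25 in JNK1Δhepa liver (log2 difference 0.96, SE 0.20). Its sham mean was 9.61, above both ligated groups. Slc25a20, which carries acylcarnitines into mitochondria for oxidation, read 9.28, 9.38 and 9.03 in control and 9.74, 9.79 and 9.81 in JNK1Δhepa liver (log2 difference 0.55, SE 0.11). The 3 JNK1Δhepa arrays lay above the sham mean of 9.70. Slc25a21, a mitochondrial carrier of oxodicarboxylates, rose by 0.76 (log2, SE 0.15). Aldh5a1, the succinate semialdehyde dehydrogenase, rose by 0.62, and Coq5, a methyltransferase of coenzyme Q synthesis, by 0.56. Rmdn3, which tethers mitochondria to the endoplasmic reticulum, rose by 0.56. The sham means of Slc25a21, Aldh5a1 and Rmdn3 were 7.88, 8.86 and 9.03, against 6.85, 8.27 and 8.30 in ligated control liver. Outside metabolism, Hopx, a homeodomain protein without DNA binding, rose by 0.64, Tubg1, the gamma-tubulin of centrosomes, by 0.57, and Mettl22, a methyltransferase, by 0.56. Rsph4a, a part of the radial spoke of motile cilia, rose by 0.87 from a dim mean of 3.46.

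Genes lower in JNK1Δhepa liver came from several systems. Snora21 and Snora33, guide RNAs of the nucleolus, fell by 1.40 (log2, SE 0.27) and 1.18 (SE 0.24). Oasl2, an interferon-inducible relative of the oligoadenylate synthetases, read 6.92, 7.43 and 7.97 in control and 5.82, 6.32 and 6.14 in JNK1Δhepa liver. Gbp3, an interferon-inducible guanylate-binding protein, read 5.36, 6.15 and 6.01 in control and 4.60, 4.77 and 4.99 in JNK1Δhepa liver. Neither pair of groups overlapped, and Oasl2 fell by 1.35 (SE 0.22) and Gbp3 by 1.06 (SE 0.21, limma adjusted p = 0.04962 for both). Without control replicate 3 the difference was -1.08 for Oasl2 and -0.97 for Gbp3. Their sham means were 7.36 and 6.30, so the JNK1Δhepa arrays were below sham liver as well.

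Apaf1, the scaffold on which caspases are activated when mitochondria release cytochrome c, read 6.72, 7.04 and 7.30 in control and 6.34, 6.22 and 6.07 in JNK1Δhepa liver. The difference was -0.81 (SE 0.15), and the sham mean was 5.85. Setd7, a lysine methyltransferase, fell by 0.83 to a mean of 6.46, close to the sham mean of 6.51. Tifab, an inhibitor of TRAF6 signalling, read 5.90, 6.29 and 6.14 in control and 4.98, 5.51 and 5.50 in JNK1Δhepa liver (log2 difference -0.78, SE 0.15). Its sham mean was 5.14. Tfec, a transcription factor of macrophages, read 7.65, 7.74 and 7.75 in control and 6.78, 7.18 and 7.13 in JNK1Δhepa liver (log2 difference -0.68, SE 0.14), with a sham mean of 6.97. Zhx2, a repressor of fetal liver genes, read 7.18, 7.87 and 7.57 in control and 6.64, 6.89 and 6.93 in JNK1Δhepa liver (log2 difference -0.72, SE 0.14). Its sham mean of 8.00 was above both. Myo9a, an unconventional myosin, fell by 0.83, Pgm2l1, a glucose bisphosphate synthase, by 0.80, and Mga, a partner of MAX, by 0.75.

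**Figure D3:**
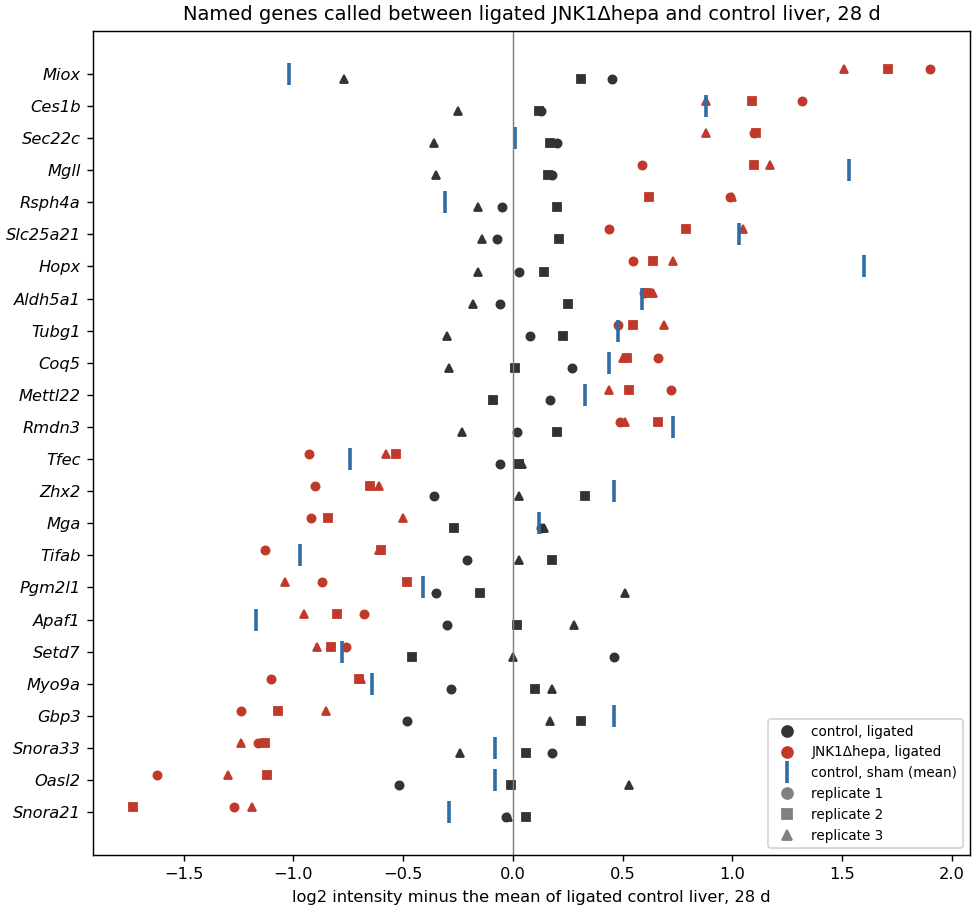
Log2 intensity of 24 called genes in ligated JNK1Δhepa (red) and ligated control liver (black) at 28 d, each minus the mean of the ligated control arrays. Marker shapes give the replicate and the blue bar the mean of sham-operated control liver. The genes were picked for groups that do not overlap, so no red point lies in the range of the black points. Miox reaches furthest to the right.

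The stretches upstream of Gbp3 and Oasl2 are shown because these are the called genes that belong to the interferon response. They are the 250 bases before the transcript start in the RefSeq promoter table for GRCm38.p6, 5′ to 3′ on the plus strand, at chr3:142559794-142560043 for the first Gbp3 start and chr5:114896684-114896933 for Oasl2. Capitals mark GAAA, any 2 bases and GAAA again, on either strand, the core of the element bound by interferon-activated factors.
Gbp3: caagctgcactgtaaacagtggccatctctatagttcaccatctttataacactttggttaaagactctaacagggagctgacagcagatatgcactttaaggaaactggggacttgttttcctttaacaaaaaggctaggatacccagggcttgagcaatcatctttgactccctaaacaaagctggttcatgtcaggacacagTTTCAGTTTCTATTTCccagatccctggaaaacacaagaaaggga
Oasl2: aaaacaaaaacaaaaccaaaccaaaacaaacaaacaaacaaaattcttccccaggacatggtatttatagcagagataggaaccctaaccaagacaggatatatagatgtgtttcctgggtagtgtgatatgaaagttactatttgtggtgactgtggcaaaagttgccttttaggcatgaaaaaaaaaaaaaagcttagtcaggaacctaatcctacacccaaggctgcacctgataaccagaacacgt
Gbp3 held 2 overlapping matches, 45 and 39 bases before the start, and Oasl2 held none in this window. The promoter of a second Gbp3 start held none either. The promoters searched were 20 for 16 of the 20 genes called lower and 24 for 17 of the 23 called higher. Some genes had more than 1, and the other called genes had none to search. The interferon motif was found in 1 of 20 promoters of genes called lower (5%), the first of Gbp3. It was found in 2 of 24 of genes called higher (8.33%), those of Miox and Ndufa9. Among 23 promoters of the interferon list 11 held the motif (47.8%), against 2.98% of all 32851 promoters in the table. The AP-1 motif TGANTCA was found in 1 of 24 promoters of genes called higher, that of Ndufa9, and in 1 of 20 of genes called lower, that of P2rx7. Its share was 6.75% over all promoters and 26.1% in the interferon list, 6 of 23. The cAMP-type AP-1 motif TGACGTCA was found in 0 of 24 and 0 of 20 promoters of these genes in 1.55% of all, and in 5 of 73 promoters of the respiratory chain genes described below (6.85%). A match is a description of letters and not of binding.

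The interferon list as a whole had a median difference of -0.50 over 26 measured genes, against 0.01 over all genes. Oasl2 and Gbp3 were its 2 called members, both lower (0.106% of all genes were). Below an unadjusted p of 0.05 were 8 members lower and none higher, against 7.59% and 7.28% of all genes. The 8 became 21 without control replicate 1. They became 3 without control replicate 2, without control replicate 3 or without the array labelled JNK1Δhepa replicate 1. Over all genes these 4 fits gave 4919, 2790, 1625 and 2260 in either direction. Ifit2 read 4.92, 6.00 and 6.77 in control and 5.04, 4.75 and 5.07 in JNK1Δhepa liver, groups that overlap (log2 difference -0.94, limma adjusted p = 0.1351, and 0.04824 with the block). Ifit3 read 5.39, 7.16 and 7.42 against 4.89, 6.00 and 6.00, and its sham mean was 8.11. Isg15 was dim, between 3.77 and 4.01 on the 6 arrays. In both genotypes the replicate 1 array was the lowest of its group over the list, at 5.84 in control and 5.63 in JNK1Δhepa liver. The list's median was -0.87 without control replicate 1, -0.29 without control replicate 2 or control replicate 3, and -0.28 without the array labelled JNK1Δhepa replicate 1.

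Within the kinase cascade 1 gene was called, and lower (0.106% of all genes were). Map3k12, an upstream kinase of the JNK pathway also known as DLK, read 5.97, 5.95 and 6.26 in control and 5.53, 5.59 and 5.42 in JNK1Δhepa liver. It fell by 0.54 (log2, SE 0.11, limma adjusted p = 0.04962), to the level of sham liver, whose mean was 5.58. Map3k1, another kinase at the top of the cascade, read 8.24, 8.10 and 8.32 against 7.77, 7.74 and 7.74 (log2 difference -0.47, limma adjusted p = 0.1469), and Map2k4, which phosphorylates JNK directly, differed by 0.07. The 15 upstream kinases and scaffolds had a median difference of -0.09, which was -0.04 without control replicate 1, -0.02 without JNK1Δhepa replicate 3 and 0.05 with arrays centred.

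None of the 16 AP-1 factors, among them targets of the kinase, was called, and their median difference was -0.27, or -0.13 with arrays centred on their medians and -0.18 without JNK1Δhepa replicate 3. Their mean log2 intensity was 7.20, 7.10 and 7.15 in control and 6.98, 6.89 and 6.72 in JNK1Δhepa liver, and 6.10 to 6.41 in sham liver. Every JNK1Δhepa array had a lower mean than every control array, and 6 of the 16 members were lower without overlap, as were 6.14% of all genes. Atf3, a stress-induced member, read 7.79, 7.55 and 7.64 in control and 6.89, 6.53 and 6.44 in JNK1Δhepa liver (log2 difference -1.04, SE 0.51, limma adjusted p = 0.3516). Its sham mean was 5.50. Maff read 6.02, 6.01 and 6.61 against 5.88, 5.32 and 5.13. Jun itself read 9.95, 9.35 and 10.04 in control and 9.38, 9.60 and 9.35 in JNK1Δhepa liver, groups that overlap, and Fos and Junb overlapped as well. Of the dual-specificity phosphatases, which switch off JNK and its relatives, none of 10 was called, and the median was -0.26, or -0.12 with arrays centred. Dusp10, which acts on JNK and p38, read 7.69, 7.84 and 7.88 against 7.52, 7.25 and 7.10 (limma adjusted p = 0.2762).

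Markers of macrophages were lower on every JNK1Δhepa array than on every ligated control array, as a mean over 26 genes. The mean was 8.45, 8.83 and 8.88 in control, 8.10, 8.26 and 8.28 in JNK1Δhepa liver and 7.30 to 7.56 in sham liver. No member was called over all arrays without the block. With it 5 were, all lower, as were 149 of 18820 genes. Below an unadjusted p of 0.05 were 13 members lower and none higher, against 7.59% and 7.28% of all genes. Of the 26, 11 were lower without overlap (6.14% of all genes). In whole liver, fewer cells of a type and less RNA per cell cannot be told apart.

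C1qa, a complement subunit made by Kupffer cells, read 9.41, 9.54 and 9.79 in control and 8.91, 9.06 and 8.95 in JNK1Δhepa liver (log2 difference -0.60, SE 0.15, limma adjusted p = 0.07824, and 0.05134 with the block). Tyrobp, the signalling adaptor of myeloid receptors, read 8.89, 9.24 and 9.65 against 8.30, 8.60 and 8.60 (log2 difference -0.76, limma adjusted p = 0.08849, and 0.04269 with the block). Both were lower on each JNK1Δhepa array than on any control array. Mpeg1, a pore-forming protein of macrophages, and Lgals3, galectin of activated macrophages, differed by -0.69 and -0.57 and were called with the block (adjusted p = 0.03199 and 0.03203). Clec4f, specific to Kupffer cells, read 9.30, 9.87 and 9.83 against 8.70, 9.46 and 9.38, groups that overlap. The list's median of -0.49 was -0.39 without control replicate 3 and -0.43 without the array labelled JNK1Δhepa replicate 1. Of the called genes outside the naming rule, chosen after their values were seen, several are known from immune cells. Sash3, an adaptor of lymphocytes, fell by 0.52, Fgd2, a gene known from antigen-presenting cells, by 0.59, and P2rx7, the ATP-gated channel of macrophages, by 0.45. Sash3 was the one of these with a lower level at 48 h too (log2 difference -0.33, unadjusted p = 0.005915 by limma).

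Cytokines and neutrophil markers held no call. Ccl2, the chemokine that draws monocytes, read 6.94, 9.04 and 8.49 in control and 5.86, 7.02 and 7.54 in JNK1Δhepa liver (log2 difference -1.35, limma adjusted p = 0.2106, and 0.07213 with the block). Tnf read 4.33, 5.16 and 4.89 against 3.96, 4.06 and 3.87, without overlap. The 33 cytokines and chemokines had a median of -0.33. It was -0.70 without control replicate 1, -0.21 without control replicate 3 and -0.19 with arrays centred. Without control replicate 1, 7 of the 33 were called lower, as were 1072 of 18820 genes. The 14 neutrophil markers had a median of -0.39, which was -0.63 without control replicate 1, -0.16 without control replicate 3 and -0.25 with arrays centred.

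Of 17 antibody genes, grouped by symbol after the values were seen, 1 was called and lower (0.106% of all genes were). With the block 7 were, against 149 of 18820 genes, and 3 of the 17 were lower without overlap (6.14% of all genes). The mean of the 17 was 5.85, 4.98 and 5.99 in control and 4.27, 4.48 and 5.47 in JNK1Δhepa liver, so that the groups overlap. The called gene, a kappa light chain variable segment, read 6.37, 6.57 and 7.49 in control and 3.98, 3.96 and 5.33 in JNK1Δhepa liver, a fall of 2.39 (log2, SE 0.41, limma adjusted p = 0.04962). Igha, the heavy chain of IgA, read 7.40, 7.13 and 7.91 against 4.68, 5.53 and 7.04, and its sham mean was 4.52 (log2 difference -1.73, limma adjusted p = 0.0641, and 0.01719 with the block). JNK1Δhepa replicate 3 was the highest of its group for both. Without it, 6 genes were called in the whole comparison: Igha, Ighg3, Jchain and 3 kappa light chain variable segments, that called one included, all lower in JNK1Δhepa and all parts of antibodies. The median over the 17 genes was -0.86, and it was -1.02 for JNK1-/- against the same control arrays. Segments of this family share sequence, so that signal may be shared between them.

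The matrix, stellate cell and bile duct lists held no call, and their medians were smaller without control replicate 3. Over 31 collagen and fibre genes the mean was 6.74, 7.08 and 8.06 in control and 6.59, 6.82 and 6.71 in JNK1Δhepa liver, with 6.63 to 6.80 in sham liver. The median difference of -0.56 became -0.12 without control replicate 3. Col1a1, a chain of type I collagen, read 6.94, 7.56 and 9.09 against 6.61, 6.95 and 6.72 (log2 difference -1.10, SE 0.39, limma adjusted p = 0.1993). Timp1, an inhibitor of matrix-degrading enzymes that is made in scarring liver, read 6.47, 7.71 and 9.07 in control and 5.67, 6.28 and 5.98 in JNK1Δhepa liver. Its groups did not overlap (log2 difference -1.77, SE 0.51, limma adjusted p = 0.1232, and 0.05731 with the block), and its sham mean was 4.61. Plau, the urokinase that activates plasmin, read 4.73, 5.25 and 5.77 against 4.40, 4.17 and 4.28 (log2 difference -0.97, SE 0.21, limma adjusted p = 0.05941, and 0.03199 with the block). For the 26 genes of matrix remodelling the median was -0.54, and -0.36 without control replicate 3. Their mean was 6.11, 6.29 and 7.11 in control and 5.98, 5.89 and 5.85 in JNK1Δhepa liver, groups that do not overlap. Of the 26, 8 were lower without overlap (6.14% of all genes).

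Stellate cell and myofibroblast markers gave a median of -0.55 over 23 genes, -0.87 without control replicate 1 and -0.15 without control replicate 3. Acta2, the smooth muscle actin of myofibroblasts, read 6.66, 7.83 and 10.87 in control and 7.04, 7.21 and 6.91 in JNK1Δhepa liver, so that control replicate 1 lay below the JNK1Δhepa arrays. Vim, vimentin of mesenchymal cells, read 10.28, 10.58 and 11.45 against 9.61, 10.05 and 9.78 and did not overlap (log2 difference -0.95, limma adjusted p = 0.1029). For 19 cholangiocyte markers the median was -0.92, or -1.44 without control replicate 1 and -0.18 without control replicate 3. Krt19, a keratin of bile duct cells, read 5.96, 6.14 and 8.95 in control and 6.03, 5.88 and 5.61 in JNK1Δhepa liver. Mesothelial markers, which mark the liver's surface, had a median of -0.88 over 10 genes, which was -0.44 without control replicate 3 and -1.42 without control replicate 2. In that last fit 4 of the 10 were called lower, as were 68 of 18820 genes. The mean of the 10 markers was 7.02, 6.22 and 7.98 on the control arrays and 5.88, 6.57 and 6.09 on the JNK1Δhepa arrays. The proliferation list moved with the same array, with a median of -0.35 over 27 genes, of -0.61 without control replicate 1 and of -0.05 without control replicate 3. Centred, it was -0.21. The part of these cell markers in the other differences was not tested.

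**Figure D4:**
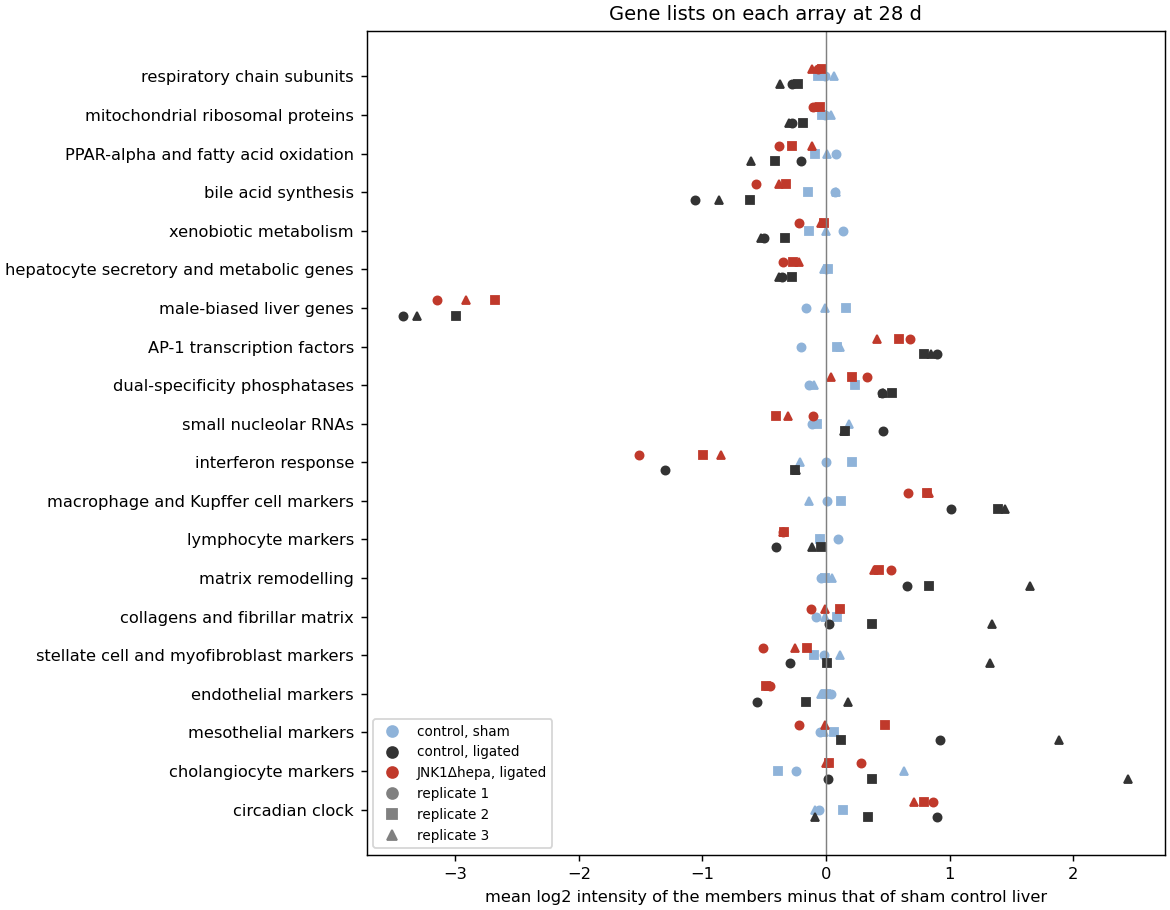
Mean log2 intensity of the measured members of 20 gene lists on each array at 28 d, minus the mean of sham-operated control liver. Blue is sham control, black ligated control and red ligated JNK1Δhepa liver, with marker shapes for the replicate. Macrophage markers, AP-1 factors, phosphatases, small nucleolar RNAs and matrix remodelling lie lower on every red point than on every black one. The black triangle, control replicate 3, stands far to the right for collagens, stellate, mesothelial and cholangiocyte markers.

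In the lists of hepatocyte functions the medians were above 0 for bile acid synthesis, bile transport and xenobiotic metabolism, and 0 members of these lists were called over all arrays without the block. The 17 genes of bile acid synthesis had a mean of 9.26, 9.71 and 9.46 in control and 9.75, 10.00 and 9.95 in JNK1Δhepa liver. All 3 JNK1Δhepa arrays were above all 3 control arrays and below sham liver, which spanned 10.18 to 10.40. None was called, 9 had an unadjusted p under 0.05 and a higher level (7.28% of all genes did), and the median of 0.29 ranged from 0.22 to 0.33 with any array left out. Akr1d1, a reductase of the bile acid pathway, read 10.52, 10.64 and 10.05 against 10.67, 11.01 and 11.03 (limma adjusted p = 0.1854). Cyp27a1, which starts the alternative pathway, read 11.81, 11.70 and 11.35 against 11.91, 11.91 and 11.88. Cyp7a1, the rate-limiting enzyme of the classical pathway, spanned 8.55 to 10.91 in control and 9.98 to 11.44 in JNK1Δhepa liver, with a difference of 1.08 and an SE of 1.15.

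Bile transporters and receptors had a median of 0.16 over 27 genes, 0.10 without control replicate 3 and 0.30 with arrays centred. Abcc4, which exports bile acids to blood, read 7.04, 7.30 and 6.78 in control and 8.58, 8.26 and 7.46 in JNK1Δhepa liver (log2 difference 1.05, SE 0.28, limma adjusted p = 0.1015, and 0.04762 with the block). Its sham mean was 5.58. Slc10a1, the sodium-dependent bile acid importer also known as NTCP, read 12.30, 12.24 and 11.95 against 12.50, 12.52 and 12.55 (limma adjusted p = 0.09098), with a sham mean of 12.65. Neither pair of groups overlapped. Abcb11, the canalicular bile salt pump, and Nr1h4, the bile acid receptor FXR, overlapped and differed by -0.05 and -0.03.

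Among 32 genes of xenobiotic metabolism none was called, and 11 were higher without overlap (7.22% of all genes). Sult1b1, a sulfotransferase, read 7.55, 7.48 and 6.92 in control and 8.51, 8.30 and 8.39 in JNK1Δhepa liver (log2 difference 1.08, SE 0.29, limma adjusted p = 0.09349). The list's median of 0.38 ranged from 0.30 to 0.45 with any array left out. The list of PPAR-alpha targets and fatty acid oxidation had a median of 0.19, which was 0.09 without control replicate 3 and 0.33 with arrays centred. Of its 23 genes 1 was called, Slc25a20, and higher (0.122% of all genes were). Cpt2, which works beside it in the mitochondrial membrane, read 9.80, 10.04 and 9.49 against 10.19, 10.36 and 10.13 (log2 difference 0.45, limma adjusted p = 0.106, and 0.03826 with the block). Nqo1, a target of the oxidative stress factor NRF2, read 8.91, 8.53 and 7.58 in control, 10.12, 9.91 and 9.07 in JNK1Δhepa liver and 5.53 on average in sham liver (log2 difference 1.36, SE 0.40, limma adjusted p = 0.1276). Of the 24 genes of the NRF2 list none was called, 19 differences were above 0 and 5 below, and the median of 0.14 was -0.01 without control replicate 1.

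Genes of the respiratory chain and ATP synthase differed in 1 direction at the unadjusted threshold. They were collected by symbol after the values were seen, so their count is a description. Their mean was 9.57, 9.63 and 9.48 in ligated control, 9.79, 9.82 and 9.74 in ligated JNK1Δhepa and 9.79 to 9.92 in sham liver. All 3 JNK1Δhepa arrays were above all ligated control arrays. Replicate 2 lay within the range of sham liver, replicate 1 at its lower end and replicate 3 below it. Of 82 genes 3 were called and higher (0.122% of all genes were), and 10 with the block (152 of 18820 genes were). At an unadjusted p under 0.05, 42 were higher and none lower, against 7.28% and 7.59% of all genes. Ndufa9, a subunit of complex I, read 9.61, 9.80 and 9.59 in control and 10.23, 10.06 and 10.03 in JNK1Δhepa liver (log2 difference 0.44, SE 0.08). Ndufs7, also of complex I, rose by 0.44 and Cyc1, cytochrome c1 of complex III, by 0.47 (limma adjusted p = 0.04962 for all 3). The median of 0.22 ranged from 0.19 to 0.25 with any array left out, and was 0.36 with each array centred on its median and 0.19 after quantile normalization. The 74 mitochondrial ribosomal proteins had a median of 0.16, with none called and 24 higher at an unadjusted p under 0.05 (7.28% of all genes), and the median was 0.29 with arrays centred.

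Small nucleolar RNAs, which guide chemical modification of ribosomal RNA, had a median difference of -0.39 and were again collected by symbol after the values were seen. Their mean was 7.61, 7.30 and 7.29 in control, 7.04, 6.74 and 6.84 in JNK1Δhepa and 7.03 to 7.33 in sham liver. Of 56 measured, 2 were called and lower (0.106% of all genes were), and 6 with the block (149 of 18820 genes were). At an unadjusted p under 0.05, 26 were lower (7.59% of all genes), and 30 were lower without overlap (6.14% of all genes). Snora21 read 7.05, 7.14 and 7.06 in control and 5.81, 5.35 and 5.89 in JNK1Δhepa liver. Snora33 read 7.61, 7.49 and 7.19 against 6.27, 6.30 and 6.19. Neither pair of groups overlapped.

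Snord118, the U8 RNA needed to process ribosomal RNA, had a larger difference and was called only in fits to these 6 arrays. It read 8.79, 8.61 and 8.50 in control and 6.31, 6.17 and 5.93 in JNK1Δhepa liver (log2 difference -2.50, SE 0.81, limma adjusted p = 0.1613 over all arrays, and SE 0.14, adjusted p = 0.01035 over the 6). Rnu2-10, a U2 RNA of the spliceosome, read 11.33, 11.06 and 11.38 against 9.78, 9.76 and 9.81 (limma adjusted p = 0.1875 over all arrays, and 0.03446 over the 6). Both were chosen after their values were seen. The class median of -0.39 lay between -0.49 and -0.29 with any array left out, and was -0.25 with arrays centred. At 48 h the class median was -0.07.

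The difference between genotypes at 28 d was then set against that at 48 h, which came from separate animals that were 8 weeks old in place of 12. Time after ligation and age cannot be told apart here. At 48 h limma called no gene between JNK1Δhepa and control liver, with 607 genes (3.23%) at an unadjusted p under 0.05. The test of the change from 48 h to 28 d also called none, with 1338 genes (7.11%) at an unadjusted p under 0.05. Of the 43 genes called at 28 d, 28 had the same sign at 48 h, against 52.2% of all genes. Sash3 and Snora33 were the 2 of them with an unadjusted p under 0.05 there. Ces1b had the opposite sign at 48 h, -0.40, and its change was 1.49 (limma unadjusted p = 9.34e-05, adjusted p = 0.418). Miox differed by -0.02 at 48 h and changed by 1.72 (limma unadjusted p = 0.002527, adjusted p = 0.6341). That the 43 calls appear at 28 d and not at 48 h is therefore not shown to be a difference between the times.

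JNK1Δhepa was also set against JNK1-/- liver at 28 d, to ask where loss in hepatocytes and loss in all cells differ. The lines came from different sources per the labels, so that strain and genotype cannot be told apart here. Limma called 181 genes (0.962%), 74 higher (0.393%) and 107 lower (0.569%) in JNK1Δhepa, and 42 without the array labelled JNK1Δhepa replicate 1. The count was 51 without JNK1-/- replicate 3 and 82 without either JNK1-/- replicate 1 or JNK1Δhepa replicate 2. Miox stood at a mean of 4.70 in JNK1-/- liver, 2.38 below JNK1Δhepa (limma adjusted p = 0.001613), and at 5.37 in ligated control liver. Akr1c18, a hydroxysteroid dehydrogenase, read 7.06, 6.77 and 6.92 in JNK1Δhepa, 3.71 to 4.95 in JNK1-/- and 5.15, 5.53 and 6.08 in control liver. It was higher in JNK1Δhepa than in JNK1-/- liver by 2.57 (SE 0.32, limma adjusted p = 0.0004424). Cyp2d9, a male-biased P450, was higher by 1.08 (limma adjusted p = 0.007367) and Timp4, an inhibitor of metalloproteinases, by 2.66 (limma adjusted p = 0.03957). JNK1-/- liver was also set against the same ligated control arrays. List medians were -0.39 for small nucleolar RNAs, -1.02 for antibody genes, -0.25 for AP-1 factors, -0.3 for phosphatases and 0.27 for bile acid synthesis. For JNK1Δhepa they were -0.39, -0.86, -0.27, -0.26 and 0.29. Other JNK1-/- medians were 0.34 for interferon, 0.08 for cytokine, -0.21 for macrophage and 0.11 for respiratory chain lists. For JNK1Δhepa these were -0.5, -0.33, -0.49 and 0.22.

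Lower in JNK1Δhepa than in JNK1-/- liver was the acute phase protein gene Saa2. It read 5.76, 7.81 and 8.85 in JNK1Δhepa and 11.49 to 12.55 in JNK1-/- liver, a difference of -4.47 (SE 0.91, limma adjusted p = 0.02224). Ligated control liver read 7.52, 11.62 and 11.19 and overlapped JNK1Δhepa liver. Saa2 has near-identical neighbours, and its signal may be shared with them. Gbp3 averaged 5.70 in JNK1-/- liver and was lower in JNK1Δhepa by 0.92 (limma adjusted p = 0.03919), and Mpeg1 by 0.82 (limma adjusted p = 0.02341). Zhx2 averaged 7.60 in JNK1-/- liver, 0.78 above JNK1Δhepa liver (limma adjusted p = 0.01134). For Oasl2 the difference was -0.72 (limma adjusted p = 0.105) and for Ndufa9 0.11 (limma adjusted p = 0.5304). Slc6a16, a transporter gene, had the largest difference, with 3.89 to 4.22 in JNK1Δhepa, 3.67 to 3.99 in control and 10.32 to 10.93 in JNK1-/- liver. Tead2 and Gas2, like Slc6a16 on chromosome 7, differed by -2.48 and 1.68, while their ligated control and JNK1Δhepa arrays lay close together.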

How the data were processed

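Total liver RNA was measured on 24 arrays in 8 groups of 3. The authors used RMA, per the submitters' processing notes, and deposited log2 intensities for each probe set. Its version and settings were not given in the sources used here. RMA brings probe signals to a common distribution across arrays and compresses low signal, so folds of dim genes are understated. Medians over all genes still differed between arrays. At 28 d they were 5.77, 5.92 and 6.08 in ligated control and 5.73, 5.82 and 5.81 in ligated JNK1Δhepa liver. Precision is limited by the number of arrays. The median SE of a difference between the ligated groups was 0.129.

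Of 35556 probe sets, 21218 carried 1 gene symbol, 1881 several and 12457 none in the platform annotation. Those with 1 symbol were kept, and the brightest stood for each of 18820 symbols. The RefSeq gene list on GRCm38.p6 held 21185 of these probe sets. The highest correlation between 2 arrays was 0.9932, and none were identical.

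Differences were fitted with limma 3.58.1 in R 4.3.3, with 1 mean per group, using all 24 arrays. The fit had 16 residual degrees of freedom and a prior of 3.55. P-values were adjusted by Benjamini and Hochberg over all genes, and a gene was called under 0.05. The script was tested on simulated data with independent noise and the same spread of a gene in all groups. The ligated control arrays spread more than the other groups, so that test does not measure false calls in this comparison. Named genes were the 12 per direction with the largest difference among called genes without overlap, the 4 members of each list with the lowest p, up to 6 per direction in the comparison with JNK1-/- and the 3 JNK genes; predicted genes and antibody segments were left out of this rule. Antibody, snoRNA and respiratory chain genes are named besides, chosen after their values were seen. The members, lists and comparisons were chosen with earlier results of these data known.

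Pairing was checked by the correlation of deviations from group means between arrays of the same number. It was 0.50, 0.24 and 0.16, all over 0.1, so the fit with the replicate number as a block is printed where it changes a call. JNK1Δhepa replicate 3 correlated more with control replicate 2 (0.26), and the labels do not say what a number marks. Alternatives were quantile normalization, median centring, a filter on dim genes, the mean of probe sets, a fit to only the compared arrays, an intensity trend, array weights, the block, and leaving out arrays. Leaving out 2 arrays together was added after seeing the data, as was the interferon motif.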

Additional observations from a re-analysis of the deposited data

How the results depend on the processing

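Of the 43 genes called between ligated JNK1Δhepa and control liver, quantile normalization gave 42 calls and kept 26 of the 43, a filter on dim genes gave 44 and kept 42, and an intensity trend gave 29 and kept 29. Median centring gave 255 calls, array weights 2357 and the replicate block over all arrays 301. The mean of probe sets gave 0 calls, with a smallest adjusted p of 0.05075 and 2794 genes at an unadjusted p under 0.05. The fit to only the 6 arrays gave 3, and the block within those 6 gave 1. Each of these 2 fits kept 0 of the 43. Leaving out 1 array gave 0 to 1985. With control replicate 3 and the array labelled JNK1Δhepa replicate 1 both left out, chosen after seeing the data, limma called 0 genes, with 1687 at an unadjusted p under 0.05, and without both arrays numbered replicate 1 it was 680. The array weights of the control arrays were 0.22, 2.82 and 0.29. The count for the change from 48 h to 28 d, 0 as reported, was 221 with array weights, 1 with the block within the 12 arrays compared and 0 to 55 with 1 array left out. For JNK1Δhepa against JNK1-/- the 181 calls became 84 in the fit to only those arrays, 1047 with array weights, 34 with the block within those arrays, 199 with the block over all arrays and 42 to 169 with 1 array left out. The cause of these shifts was not tested. The cholesterol synthesis list had a median of 0.27, and of -0.19 without control replicate 1. It was 0.52 without control replicate 2, 0.53 without the array labelled JNK1Δhepa replicate 1 and 0.07 without JNK1Δhepa replicate 3. The number of arrays, 3 per group, limits the precision.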

Other observations

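Clock genes differed between the ligated control arrays. Arntl, which encodes the clock factor BMAL1, read 8.46, 6.77 and 5.98 in control and 8.76, 8.06 and 8.13 in JNK1Δhepa liver, and Cry1, a repressor of the clock, read 7.62, 6.19 and 5.45 against 7.92, 7.05 and 7.19. Neither was called (limma adjusted p = 0.2595 and 0.2824). The mean of the 15 clock genes was 8.18, 7.62 and 7.19 in control, 8.15, 8.08 and 7.99 in JNK1Δhepa and 7.20 to 7.42 in sham liver.

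Male-biased liver genes, which depend on pulsed growth hormone, were far below sham liver in both genotypes. Over 22 genes the mean was 7.43, 7.86 and 7.54 in ligated control, 7.70, 8.17 and 7.94 in ligated JNK1Δhepa and 10.69 to 11.01 in sham liver. Bcl6, a repressor that keeps the male pattern, read 6.98, 7.77 and 7.46 in control and 5.74, 6.31 and 5.40 in JNK1Δhepa liver (log2 difference -1.58, SE 0.35, limma adjusted p = 0.05941, and 0.03199 with the block). Cyp4a12a, a fatty acid hydroxylase of male liver, read 10.30, 9.36 and 6.04 against 10.97, 11.22 and 10.92 (limma adjusted p = 0.161). Cyp2b9, a female-biased P450, read 8.23, 7.67 and 3.77 against 9.34, 8.71 and 10.34 (limma adjusted p = 0.2166). For Cyp4a12a and Cyp2b9 control replicate 3 was the lowest array.

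The acute phase gene Saa3 read 8.87, 8.12 and 7.23 in ligated control and 5.27, 6.23 and 6.18 in ligated JNK1Δhepa liver, and the groups did not overlap (log2 difference -2.18, SE 0.66, limma adjusted p = 0.1418). Foxa3, a liver transcription factor, read 9.06, 9.35 and 9.29 against 8.39, 8.59 and 8.73 (log2 difference -0.66, SE 0.15, limma adjusted p = 0.05869, and 0.03199 with the block).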
